A study of Mus musculus with 6 samples.

Results

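The NF-kB pathway was described here through 34 mouse genes that encode its subunits, its inhibitors, its upstream kinases and adaptors, and genes it is known to induce. They were chosen by symbol from the 38926 genes of the deposited table, and all 34 were found there. RNA was sequenced from sorted LSK cells. These marrow cells lack lineage markers, carry Sca-1 and Kit, and include blood stem cells and early progenitors. The haloperidol group (3 libraries) came from C57BL/6 mice aged 8 to 12 weeks that were injected with haloperidol, a dopamine receptor antagonist used as an antipsychotic, on 3 consecutive days, and the DMSO group (3 libraries) from mice of the same strain and age given the solvent. Drug or solvent stayed with the cells through the sort, and in both groups the femur and tibia were crushed and digested with collagenase. No transgene or deletion is named for either group.

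In resting cells the NF-kB dimers, built from RelA, c-Rel, RelB and the products of Nfkb1 and Nfkb2, are held in the cytoplasm by inhibitor proteins of the IkB family. Receptors for tumour necrosis factor, interleukin-1 and microbial products signal through adaptors to the IkB kinase complex, which marks the inhibitors for breakdown and frees the dimers to enter the nucleus. Many of the genes then switched on are inhibitors and feedback regulators of the same pathway, so the pathway is known for restraining itself, and in stem and progenitor cells it is known for its part in responses to inflammation.

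Each library held between 8523556 and 8969032 reads, as recovered from the steps between low values, and a count of 0 reads sets an upper limit of 3 reads, for counting error only. Kit and Ly6a, the genes of the proteins the cells were sorted on, were at 81.0 ± 9.78 and 138 ± 10.5 FPKM in haloperidol and 87.8 ± 7.38 and 136 ± 10.2 FPKM in DMSO (mean ± SD, n = 3 each). FPKM here is fragments scaled to gene length and to a size factor of each library. That factor followed the median ratio of a library's reads to each gene's geometric mean over libraries, and not its total of reads. FPKM is a level per length, so levels of different genes may be set side by side. The labels do not say whether libraries came from separate mice or were sorted on separate days. The p-values therefore measure the spread between these samples, and treatment cannot be told apart from any sort or sequencing day that differed between the groups. Libraries keep no strand, and 13 members share exon bases with another annotated gene, among them 5 of those that fell (Icam1, Il1b, Nfkb2, Tnfaip2 and Tnfaip8), so part of their reads could be the neighbour's.

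The comparison asked how haloperidol changed the pathway's transcripts. Members known as NF-kB-induced were mostly lower with haloperidol, while calls among the kinases and adaptors that carry the signal were about as frequent as among all genes. Of 33 members with a mean of at least 1 FPKM, 17 fell and 2 rose at an adjusted p below 0.05 (limma, adjusted over all 11436 genes tested), and 14 did not pass. Over all genes tested 13% were called lower and 11.5% higher, 24.5% in all, against 51.5% lower and 6.06% higher among the members. The median log2 fold change was -0.28 over the members and 0.00 over all genes. Fold changes are haloperidol over DMSO on the log2(FPKM + 1) scale, which understates the change of low genes. All 3 haloperidol libraries lay below all 3 DMSO libraries for 20 members, against 22.1% of all genes, and above them for 2 members, against 21% of all genes.

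**Figure D1:**
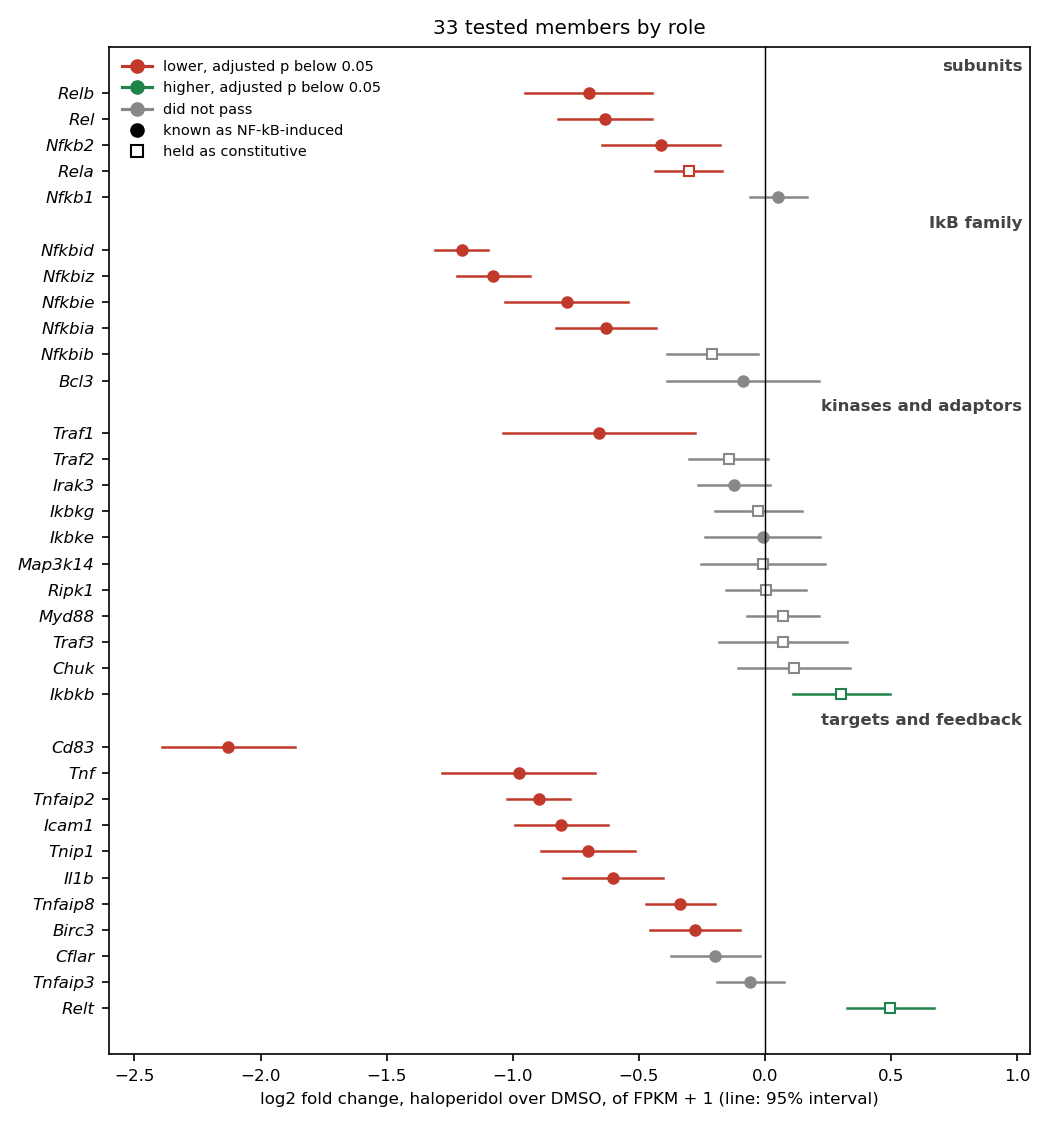
Log2 fold change of FPKM + 1, haloperidol over DMSO, on the horizontal axis for the 33 tested members, grouped by role; lines are 95% intervals, circles are members known as NF-kB-induced and open squares members held as constitutive. Red members (17) passed the test as lower, green members (2) as higher and grey members (14) did not pass, and Cd83 stands furthest left at -2.13.

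The members were divided from textbook knowledge into 23 whose transcription NF-kB is known to induce and 11 held as constitutive parts. Earlier results of these data were known when this was done, so the contrast between the classes is a description and not a blind test. Of the 22 induced members tested, 16 fell and 0 rose, with a median log2 fold change of -0.63. Of the 11 constitutive members, 1 fell (Rela) and 2 rose (Ikbkb and Relt), with a median of 0.00. The induced members were the more abundant, with a median level of 23.9 FPKM against 11.5 FPKM for the constitutive members. The typical half-width of the 95% interval was 0.19 on the log2 scale for induced and 0.17 for constitutive members. Induced members with no call were Nfkb1, Bcl3, Ikbke, Irak3, Tnfaip3 and Cflar, so the class did not move as one.

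Among the DNA-binding subunits, 4 of 5 fell and Nfkb1 did not pass. Rela, which encodes the main transactivating subunit and was the most abundant, had 96.2, 92.3 and 104 FPKM in haloperidol libraries, against 126, 120.0 and 115 FPKM in DMSO libraries. The groups did not overlap, and the fall was small (log2 fold change -0.30, SE 0.06, adjusted p = 0.00749). Rel, the c-Rel gene of lymphoid and progenitor cells, was at 8.31, 9.0 and 9.14 FPKM with haloperidol and 14.4, 15.5 and 12.9 FPKM with DMSO. Every haloperidol library lay under the lowest DMSO one, and the log2 fold change was -0.63 (SE 0.08, adjusted p = 0.0012). Relb, the subunit of the alternative branch of the pathway, had 6.34, 7.76 and 8.96 FPKM after haloperidol and 13.7, 12.3 and 13.1 FPKM after DMSO. Its fall was of like size (-0.70, SE 0.11, adjusted p = 0.00302).

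Nfkb2, whose product is processed to the partner of RelB, had 12.9, 13.2 and 16.4 FPKM in haloperidol libraries, against 21.1, 17.4 and 18.9 FPKM in DMSO libraries. The groups came close at haloperidol replicate 3, and the log2 fold change was -0.41 (SE 0.10, adjusted p = 0.0211). That call ended without haloperidol replicate 1 (adjusted p = 0.072), haloperidol replicate 2 (0.0695), DMSO replicate 1 (0.0722) or DMSO replicate 3 (0.0574), and with no filter on low values (0.0681). Nfkb1, which encodes the usual partner of RelA and is itself known as a target, had 44.8, 44.2 and 43.0 FPKM with haloperidol and 40.9, 43.1 and 43.2 FPKM with DMSO. The groups overlapped, and the 95% interval of its log2 fold change was -0.06 to 0.17. Within each group the order of levels was Rela, Nfkb1, Nfkb2, and then Rel and Relb. These last 2 overlapped in both groups.

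In the IkB family 4 of 6 members fell and 0 rose, and the nuclear members Nfkbid and Nfkbiz fell most. Nfkbid (chromosome 7, 30421731 to 30428749, GRCm38.p6), an atypical inhibitor that acts in the nucleus, had 196, 181 and 189.9 FPKM with haloperidol and 435, 434 and 439 FPKM with DMSO. The libraries of each group lay within a narrow range and far apart from the other group. The log2 fold change was -1.20 (SE 0.05, adjusted p = 5.53e-06), and the mean changed by -56.7%. Nfkbiz (chromosome 16, 55811375 to 55838954), a nuclear co-regulator of secondary response genes, was at 77.5, 74.7 and 85.4 FPKM in haloperidol and 164, 178 and 163 FPKM in DMSO. The groups were again well separated (-1.08, SE 0.06, adjusted p = 4.18e-05).

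Nfkbia (chromosome 12, 55489409 to 55492647), the classical IkB-alpha inhibitor that is resynthesised after each activation, was the most abundant member. It had 653, 604 and 786 FPKM in haloperidol libraries, against 1047, 1060.3 and 1041 FPKM in DMSO libraries. The DMSO libraries were almost level and the haloperidol ones spread widely beneath them (-0.63, SE 0.09, adjusted p = 0.00168). Nfkbie, the IkB-epsilon gene, which gives a later feedback, had 27.3, 32.6 and 38.3 FPKM with haloperidol and 58.9, 56.9 and 54.2 FPKM with DMSO (-0.79, SE 0.11, adjusted p = 0.00159).

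The other members of the family did not pass the test. Bcl3, a nuclear partner of the homodimers of the Nfkb1 and Nfkb2 products, had 69.9, 69.5 and 102 FPKM in haloperidol and 86.7, 80.1 and 85.2 FPKM in DMSO. Haloperidol replicates 1 and 2 were under every DMSO library and replicate 3 was over them all (log2 fold change -0.09, 95% interval -0.39 to 0.22). Without haloperidol replicate 3 Bcl3 passed as lower (-0.27, adjusted p = 0.016). Nfkbib, the IkB-beta gene that is held as constitutive, had 21.2, 19.7 and 24.0 FPKM with haloperidol and 23.7, 26.2 and 25.4 FPKM with DMSO (adjusted p = 0.0887). It too passed without haloperidol replicate 3 (-0.28, adjusted p = 0.0297).

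**Figure D2:**
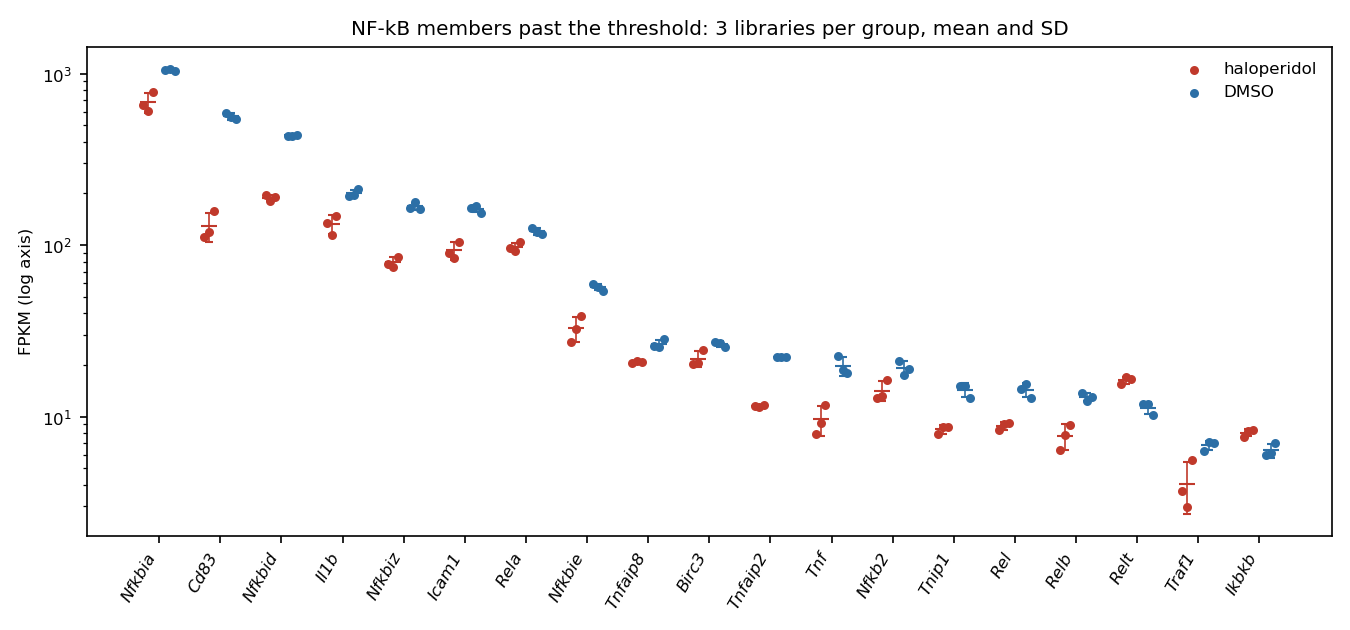
FPKM on a log axis for the 19 members past the threshold, ordered by their DMSO mean; points are the 3 libraries of each group, haloperidol (red) to the left of DMSO (blue), with mean and SD. The groups do not overlap for any of the 19, but these were picked by the test on the same values, so this adds no support. Relt and Ikbkb are the 2 with haloperidol above DMSO.

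Promoter windows, 250 bases before to 50 after a start site, were matched by symbol in RefSeq sequence (GRCm38.p6, the assembly also called mm10) for 27 of the 34 members. Cd40, Cd83, Ikbkb, Nfkb1, Nfkbiz, Relb and Tnfaip8 had no window. Both strands were searched for the kappa-B consensus, the binding sequence of NF-kB dimers. It occurred in 8 of 17 induced members with a window (47.1%) and in 1 of 10 constitutive members (Traf3, 10%), beside 1388 of all 27025 genes (5.14%). Of members that fell it was in 6 of 13 (Nfkb2, Nfkbia, Nfkbid, Nfkbie, Rel and Tnip1), and of members that did not pass in 3 of 13 (Bcl3, Tnfaip3 and Traf3), so a match did not go with a fall in every case. Rela, Traf1, Tnfaip2, Icam1, Birc3, Tnf and Il1b fell and had a window without a match. The induced class was chosen as known NF-kB targets, so its higher share is not a finding of these data.  The windows printed here are those of 4 inhibitor and subunit genes that fell and, for contrast, of Tnfaip3, which had no call. Each is printed 5′ to 3′ on the strand of its gene with the matches in capitals.
Nfkbia, chr12:55492598-55492897 (minus strand): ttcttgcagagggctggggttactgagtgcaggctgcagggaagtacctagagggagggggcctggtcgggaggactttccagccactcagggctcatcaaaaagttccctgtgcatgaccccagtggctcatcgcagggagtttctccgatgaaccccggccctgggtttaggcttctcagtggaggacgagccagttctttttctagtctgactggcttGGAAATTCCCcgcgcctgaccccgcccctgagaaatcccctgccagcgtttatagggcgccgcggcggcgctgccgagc
Nfkbid, chr7:30422156-30422455 (plus strand): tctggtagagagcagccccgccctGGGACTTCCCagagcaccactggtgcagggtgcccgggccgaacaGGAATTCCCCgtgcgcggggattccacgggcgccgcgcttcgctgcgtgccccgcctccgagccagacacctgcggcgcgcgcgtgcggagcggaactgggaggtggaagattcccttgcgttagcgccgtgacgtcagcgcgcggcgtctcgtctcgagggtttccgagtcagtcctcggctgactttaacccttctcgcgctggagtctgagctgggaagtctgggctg
Rel, chr11:23770920-23771219 (minus strand): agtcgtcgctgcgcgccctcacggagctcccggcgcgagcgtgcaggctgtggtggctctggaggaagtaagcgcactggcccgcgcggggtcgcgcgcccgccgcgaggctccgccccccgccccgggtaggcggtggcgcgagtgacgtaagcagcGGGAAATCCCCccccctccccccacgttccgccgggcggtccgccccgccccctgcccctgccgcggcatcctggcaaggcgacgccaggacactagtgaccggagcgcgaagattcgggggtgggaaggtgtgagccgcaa
Tnip1, chr11:54962891-54963190 (minus strand): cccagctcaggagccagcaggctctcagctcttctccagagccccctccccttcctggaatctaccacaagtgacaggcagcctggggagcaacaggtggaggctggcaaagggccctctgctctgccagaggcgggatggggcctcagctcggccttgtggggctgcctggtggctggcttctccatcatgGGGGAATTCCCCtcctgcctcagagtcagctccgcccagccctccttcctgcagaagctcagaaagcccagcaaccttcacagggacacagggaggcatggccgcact
Tnfaip3, chr10:19015361-19015660 (minus strand): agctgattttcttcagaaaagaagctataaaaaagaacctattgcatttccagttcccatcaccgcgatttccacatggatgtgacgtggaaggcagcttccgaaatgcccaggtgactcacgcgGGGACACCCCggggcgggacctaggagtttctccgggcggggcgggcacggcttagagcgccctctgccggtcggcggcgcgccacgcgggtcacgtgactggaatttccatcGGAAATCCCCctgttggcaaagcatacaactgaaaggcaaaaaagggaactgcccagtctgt

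In Nfkbia the match began 29 bases before the start site. The window of Nfkbid held 2 matches (GGGACTTCCC and GGAATTCCCC), at 226 and 181 bases before the start, and that of Tnfaip3 also held 2 (GGGACACCCC and GGAAATCCCC), at 125 and 12 bases before it. In Rel 2 matches and in Tnip1 3 matches overlapped each other, so each capital run there is longer than a single match. A match is a description of letters and not a measured binding site.

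Of the 11 kinases and adaptors 1 fell (9.09%), 1 rose (9.09%) and 9 did not pass, with a median log2 fold change of -0.01. Both shares were near those of all genes, 13% lower and 11.5% higher. Ikbkb, the kinase subunit that phosphorylates IkB proteins in the classical pathway, had 7.62, 8.25 and 8.30 FPKM with haloperidol and 5.93, 6.10 and 7.04 FPKM with DMSO. All haloperidol libraries were above the DMSO ones (0.30, SE 0.08, adjusted p = 0.0331). Leaving out DMSO replicate 1 or 2 or any 1 haloperidol library ended the call (adjusted p between 0.052 and 0.103), and so did testing with no filter on low values (0.0719). Traf1, an adaptor known to be induced by NF-kB, had 3.66, 2.96 and 5.56 FPKM in haloperidol libraries, against 6.33, 7.09 and 7.05 FPKM in DMSO libraries. Its fall (-0.66, SE 0.17, adjusted p = 0.0223) rested on all libraries but haloperidol replicate 3, since leaving out any other ended the call (adjusted p between 0.0504 and 0.0711), as did testing with no filter on low values (0.082).

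Chuk, the second catalytic subunit of the IkB kinase, and Ikbkg, its regulatory scaffold, had intervals of -0.11 to 0.34 and -0.20 to 0.15. Myd88, the adaptor of interleukin-1 and Toll-like receptors, was the most abundant of the role without a call, with 28.2, 29.7 and 31.2 FPKM after haloperidol and 27.1, 27.8 and 29.9 FPKM after DMSO. The groups overlapped, and the interval was -0.07 to 0.21. For the receptor-bound kinase gene Ripk1 the log2 fold change was 0.00 (interval -0.16 to 0.16), and for Map3k14, which encodes the kinase of the alternative branch, it was -0.01 (-0.25 to 0.24). Traf2 and Traf3, adaptors that hold that kinase in check, had fold changes of -0.14 (-0.30 to 0.01) and 0.07 (-0.18 to 0.32). Ikbke, an inducible IkB kinase relative, and Irak3, an inducible brake on Myd88 signalling, were at -0.01 (-0.24 to 0.22) and -0.12 (-0.27 to 0.02). Each of these intervals spans 0, and a missed threshold does not show that the groups were alike.

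Of the targets and feedback genes 8 of 11 tested fell, 1 rose and 2 did not pass. The 1 that rose was Relt, the list's only tested member held as constitutive, and of the 10 induced ones 8 fell and 0 rose. The largest fall of the 33 members was in this role. Cd83 (chromosome 13, 43785112 to 43803133), an activation marker on the surface of dendritic cells and lymphocytes, had 111, 119 and 158 FPKM with haloperidol and 588, 555 and 544 FPKM with DMSO. The groups lay far apart, and the fold change on the log2 scale was -2.13 (SE 0.12, adjusted p = 3.21e-05), which was the third largest fall of all genes tested. Tnf, the gene of the cytokine that both activates and is made by the pathway, had 7.94, 9.20 and 11.7 FPKM in haloperidol and 22.6, 18.6 and 18.1 FPKM in DMSO. Its fall was -0.98 (SE 0.13, adjusted p = 0.00161). Il1b, which encodes interleukin-1 beta, had 135, 115 and 148 FPKM with haloperidol and 194, 196 and 212 FPKM with DMSO (-0.60, SE 0.09, adjusted p = 0.00205). Both cytokine genes were thus lower in every haloperidol library.

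Tnfaip2, a target induced by tumour necrosis factor, had 11.5, 11.3 and 11.6 FPKM in haloperidol libraries, against 22.2, 22.1 and 22.4 FPKM in DMSO libraries. Its libraries were nearly level within each group (-0.90, SE 0.05, adjusted p = 4.55e-05). Icam1, an adhesion molecule for leukocyte integrins, had 90.3, 84.0 and 105 FPKM with haloperidol and 166, 169.7 and 154 FPKM with DMSO (-0.81, SE 0.08, adjusted p = 4.05e-04). Tnip1, whose product binds the Tnfaip3 protein and limits signalling, had 7.88, 8.68 and 8.69 FPKM with haloperidol and 15.1, 15.0 and 12.8 FPKM with DMSO. That fall was -0.70 (SE 0.08, adjusted p = 7.73e-04), while Tnfaip3 itself, the ubiquitin-editing brake on the pathway, had 59.9, 62.4 and 57.1 FPKM with haloperidol and 60.9, 66.2 and 59.9 FPKM with DMSO. Tnfaip3 overlapped between the groups, with an interval of -0.19 to 0.07.

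Tnfaip8, a regulator of cell death, had 20.5, 21.1 and 20.8 FPKM in haloperidol libraries, against 25.7, 25.5 and 28.4 FPKM in DMSO libraries (-0.34, SE 0.06, adjusted p = 0.00526). Birc3, a ubiquitin ligase that protects cells from death by tumour necrosis factor, had 20.4, 20.4 and 24.5 FPKM with haloperidol and 27.1, 27.0 and 25.5 FPKM with DMSO (-0.28, SE 0.08, adjusted p = 0.0347). The Birc3 call ended without haloperidol replicate 1 or 2 or without any 1 DMSO library (adjusted p between 0.0583 and 0.107), with no filter on low values (0.0822) and with the replicate number as a block (0.058). Cflar, an inhibitor of caspase activation by death receptors, had 6.68, 5.92 and 6.43 FPKM with haloperidol and 7.57, 7.01 and 7.66 FPKM with DMSO. Its groups did not overlap, but it did not pass (adjusted p = 0.102).

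Relt, which encodes a member of the same receptor family as the tumour necrosis factor receptors and is held as constitutive here, went the other way. It had 15.5, 17.0 and 16.5 FPKM with haloperidol and 11.9, 11.8 and 10.2 FPKM with DMSO. Its fold change was 0.50 on the log2 scale (SE 0.08, adjusted p = 0.00263). Cd40, a receptor of antigen-presenting cells that signals to NF-kB, was at 3, 2 and 1 reads in haloperidol libraries, against 2, 5 and 3 reads in DMSO libraries. Those counts are too few for a call, so no difference in Cd40 was detectable at this depth, and it was the 1 member left untested.

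The haloperidol libraries differed among themselves in a shared way. Of the 17 members that fell, haloperidol replicate 3 had the highest value of its group for 15 and the lowest for 0, while over the 1487 genes called lower it was the highest for 29.8%. Their summed level was 1486, 1406 and 1731 FPKM in haloperidol replicates 1, 2 and 3, against 2946, 2931 and 2881 FPKM in DMSO replicates 1, 2 and 3. Replicate 3 was thus nearest to the DMSO libraries in sum and still well below them. Summed neutrophil markers were 169.9, 281 and 300.1 FPKM in the same haloperidol libraries and 164, 277 and 180 FPKM in the DMSO ones. Their sum was thus lowest in haloperidol replicate 1, and that of the members in haloperidol replicate 2. The part of neutrophil markers in the members' order was not tested. Without haloperidol replicate 3, 19 members fell, with Bcl3 and Nfkbib added.

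**Figure D3:**
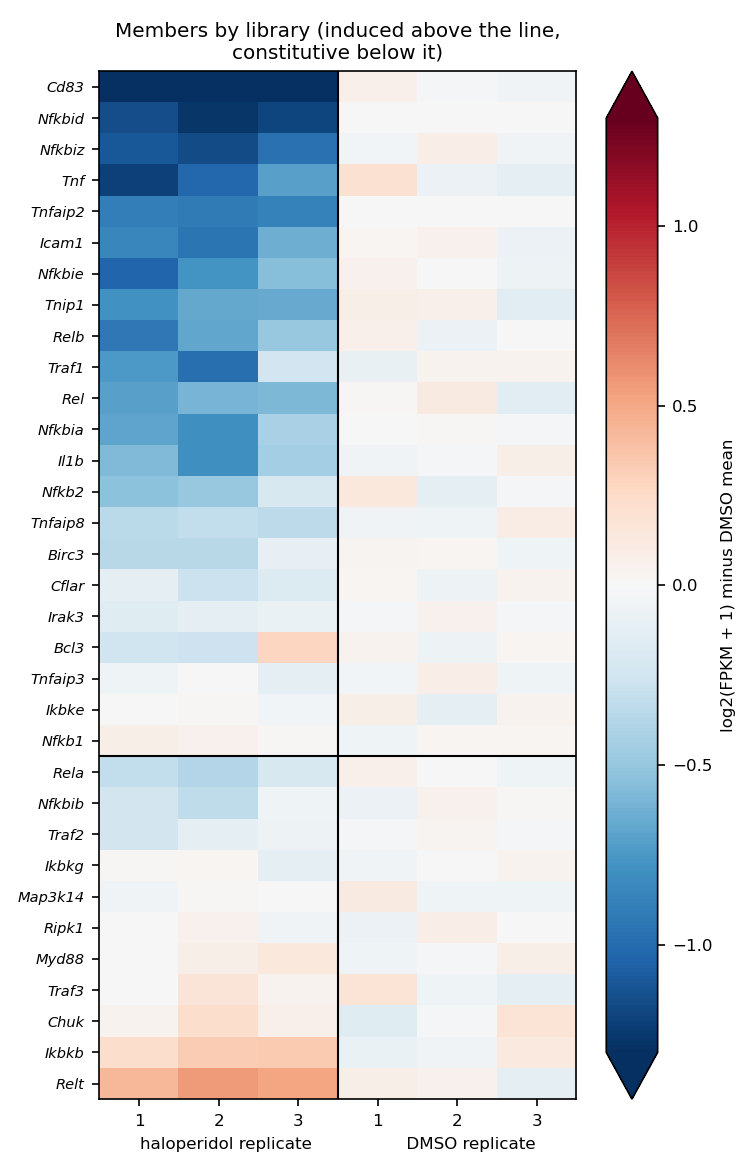
Each row is a tested member and each column a library (haloperidol replicates 1 to 3 left, DMSO replicates 1 to 3 right); colour is log2(FPKM + 1) minus the DMSO mean, blue lower and red higher. Cd83 lies beyond the blue end of the scale, haloperidol replicate 3 is the palest of the 3 haloperidol columns for most induced members, and Bcl3 changes colour there.

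Other genes of the pathway, 93 of 94 found in the table, were taken in 4 lists from textbook knowledge, also with earlier results of these data known. Of 34 induced targets outside the members 24 were tested. Of these 17 fell, 1 rose and 6 did not pass, with a median log2 fold change of -0.71. The lymphotoxin beta gene Ltb had 21.2, 21.7 and 21.5 FPKM with haloperidol and 99.0, 89.8 and 86.3 FPKM with DMSO (-2.04, SE 0.06, adjusted p = 2.34e-06). Ptgs2, the inducible prostaglandin synthase, had 68.1, 66.8 and 62.1 FPKM in haloperidol and 163, 186 and 172 FPKM in DMSO (-1.39, SE 0.06, adjusted p = 1.27e-05). These and Gadd45b, a stress-induced regulator of kinase signalling (-1.3, SE 0.07, adjusted p = 3.82e-05), had the smallest p of that list. The 1 that rose was Sod2, the mitochondrial superoxide dismutase gene, singled out after its value was seen. It was at 36.4 ± 0.569 FPKM with haloperidol, against 29.9 ± 1.53 FPKM with DMSO (SD, n = 3 each, adjusted p = 0.00897).

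Of 11 further inhibitors 5 fell (45.5%, against 13% of all genes) and 0 rose. Tnip3, a relative of Tnip1, had 5.56, 5.61 and 5.77 FPKM after haloperidol and 13.1, 13.9 and 13.9 FPKM after DMSO (-1.14, SE 0.07, adjusted p = 4.18e-05). Nfkbil1, which encodes an IkB-like protein, fell by 0.54 on the log2 scale (SE 0.06), and Sigirr, a receptor that dampens interleukin-1 signalling, by 0.48 (SE 0.06). Of 13 other receptors 2 fell and 0 rose, a share of 15.4% lower that is near the 13% of all genes. They were Tnfrsf13c, the receptor of a B cell survival factor (-0.88, SE 0.10), and Tnfrsf1b, a tumour necrosis factor receptor (-0.31, SE 0.05), and next by p came the Toll-like receptor gene Tlr2 (0.31, SE 0.11), which did not pass. Of 28 other adaptors and kinases 4 fell and 4 rose, or 14.3% each way, also near the background. Map3k8, a kinase held by the Nfkb1 product, fell by 0.61 (SE 0.08) and Tradd, an adaptor of tumour necrosis factor receptors, by 0.41 (SE 0.07), while Rbck1, part of the linear ubiquitin ligase, rose by 0.28 (SE 0.05).

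**Figure D4:**
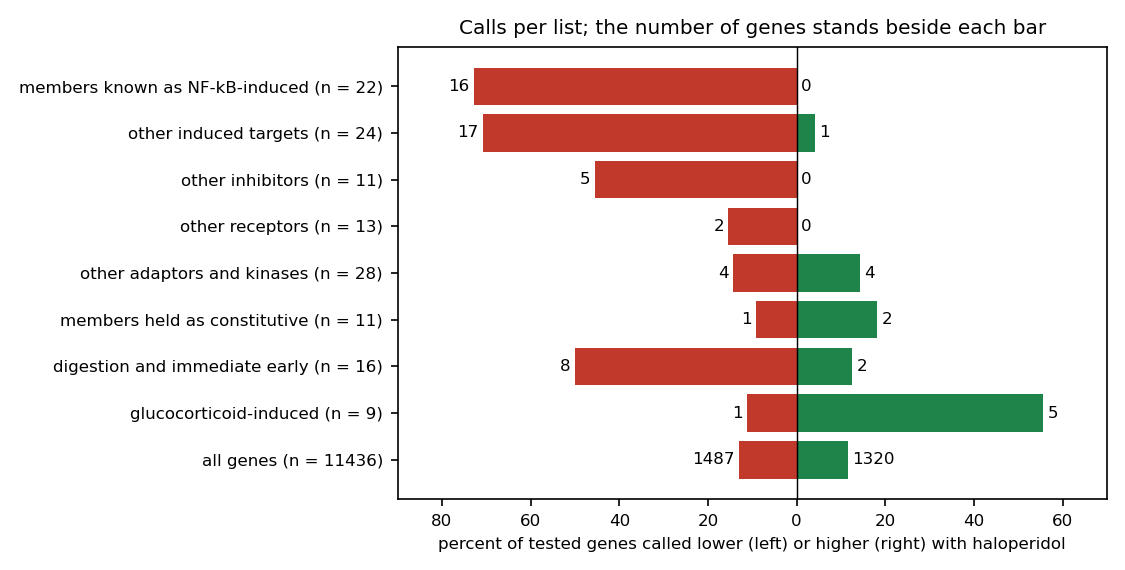
Percent of tested genes called lower (red, left) or higher (green, right) with haloperidol for the members by class, the other pathway lists, 2 lists of handling and steroid response, and all 11436 genes; the number of genes stands beside each bar. Induced members (16 of 22) and other induced targets (17 of 24) reach furthest left, and the other adaptors and kinases (4 lower and 4 higher of 28) lie near the bar of all genes.

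Several other gene groups moved beside the members, and their part in these results was not tested. Of 16 genes known as raised by tissue digestion, mostly immediate early genes with some heat shock genes, 8 fell (50%) and 2 rose (12.5%). Over all genes 13% were called lower and 11.5% higher, so the share that rose was near the background. The median log2 fold change of the 16 genes was -0.20. Together they summed to between 8352 and 9106 FPKM with haloperidol and between 10058 and 10740 FPKM with DMSO. Of 9 tested genes known as induced by glucocorticoids, steroids that restrain NF-kB, 5 rose (55.6%) and 1 fell (11.1%), with a median of 0.53. The 1 that fell, the phosphatase gene Dusp1, is on both lists and is also 1 of the 8 counted there. The steroid-induced gene Fkbp5 averaged 31.6 ± 1.11 FPKM with haloperidol and 11.7 ± 0.830 FPKM with DMSO (SD, n = 3 each).

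Marker lists of other cells the gate could hold were summed too. In bulk samples fewer cells of a type and less RNA per cell cannot be told apart. Over all genes tested 13% were called lower and 11.5% higher. Calls among neutrophil markers (12.5% higher) and among monocyte and macrophage markers (14.3% each way) were near those shares. Lists with fewer tested genes give only a rough share. The 9 B cell and plasma cell markers summed to between 123 and 142 FPKM with haloperidol and between 280.3 and 322 FPKM with DMSO, of 5 tested 4 fell, and Ighm led them with 102 ± 12.3 FPKM in haloperidol and 262 ± 18.7 FPKM in DMSO. For 9 dendritic cell markers the sums were 239 to 245 FPKM with haloperidol and 295 to 348 FPKM with DMSO. Flt3, Cd74 and H2-Ab1 carried these sums. Xcr1, Clec9a, Siglech and Cd209a had means of at most 0.310 FPKM in either group. Among the untested, Itgax was at 1.08 FPKM with haloperidol and 0.577 FPKM with DMSO, and Zbtb46 at 0.311 and 0.926 FPKM. The sums therefore say little about dendritic cells. Of 3 tested 2 fell and 1 rose. The antigen presentation gene Cd74, the highest by its mean over all libraries, fell to 73.0 ± 1.04 FPKM in haloperidol, against 148 ± 19.2 FPKM in DMSO (SD, n = 3 each). Flt3, a cytokine receptor that early progenitors also carry, rose to 116 ± 5.21 FPKM in haloperidol, against 103 ± 2.36 FPKM in DMSO (SD, n = 3 each, limma adjusted p = 0.0484). Among 12 monocyte and macrophage markers, 1 rose (Cd68) and 1 fell of 7 tested, and the sums were 66.0 to 73.6 FPKM with haloperidol and 38.6 to 42.1 FPKM with DMSO. Cd68, a lysosomal membrane protein gene, led them, and the other 11 summed to between 24.9 and 27.7 FPKM with haloperidol and between 23.3 and 26.1 FPKM with DMSO, which overlapped. Sums of 9 T cell and NK cell markers overlapped, at 275 to 319 FPKM with haloperidol and 313 to 334 FPKM with DMSO, and Nkg7 led them with 296 ± 22.6 FPKM in haloperidol and 318 ± 11.4 FPKM in DMSO. Sums of 9 neutrophil markers also overlapped, at 169.9 to 300.1 FPKM with haloperidol and 164 to 277 FPKM with DMSO, and 1 of 8 tested rose. The most abundant was S100a8, with 95.4 ± 23.7 FPKM in haloperidol and 72.3 ± 21.5 FPKM in DMSO. So did sums of 7 erythroid markers, at 4161 to 5496 FPKM with haloperidol and 3593 to 4762 FPKM with DMSO, of which the globin gene Hbb-bs was the most abundant with 1904 ± 265 FPKM in haloperidol and 1489 ± 188 FPKM in DMSO. Sums of 7 endothelial markers did not overlap, at 22.0 to 23.3 FPKM with haloperidol and 23.6 to 25.3 FPKM with DMSO. Of 4 tested 1 fell, Emcn, with 3.83 ± 0.276 FPKM in haloperidol and 4.92 ± 0.0600 FPKM in DMSO. Pecam1 led that list with 11.4 ± 0.560 FPKM in haloperidol and 11.2 ± 0.630 FPKM in DMSO. Nor did those of 6 stromal markers, at 33.1 to 35.4 FPKM with haloperidol and 28.1 to 32.7 FPKM with DMSO, and 1 of 3 tested rose. There Cxcl12 led with 15.2 ± 0.951 FPKM in haloperidol and 15.3 ± 3.67 FPKM in DMSO. The T cell marker Cd8a was at 0 reads in all 6 libraries.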

How the data were processed

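RNA was measured in 3 haloperidol and 3 DMSO libraries of sorted LSK cells. Per the labels' protocols, low-input SMART-Seq chemistry gave the cDNA and a Nextera kit the libraries. The submitters' processing notes name DESeq2 1.18.1, HTSeq 0.6.1, TopHat2 2.1.1, bcl2fastq 2.19.1.403 and the build mm10, with no annotation release or counting options. The authors deposited 1 table of FPKM values, with 0 further columns of values. Once a scale factor of each library was divided out, those values were whole multiples of a step per gene. Dividing by it gave whole reads, to within 0.001, in 100% of 20633 genes with a value above 0. A gene with a value in only 1 library meets this by construction. The recovered reads served for depth and for 1 added test.

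Genes with a mean of at least 1 FPKM (11436) entered a two-sided test on log2(FPKM + 1) without covariates, by limma's trended empirical Bayes fit (limma 3.58.1, R 4.3.3). Benjamini-Hochberg adjustment ran over all of them, with a threshold of 0.05. Intervals are 95% intervals from that fit. The test was also run on simulated reads, with the same spread set for every gene and no sort or animal effect. That run therefore does not give the error rate in these libraries. The members, lists and tests were chosen with earlier results of these data known. Every tested member is named. Values in each library are given for members past the threshold and for the most abundant member of each role without a call, and those of Nfkbib and Cflar were added after they were seen. Of the other pathway lists the 3 genes with the smallest p, and of marker lists the most abundant gene, are named. Sod2, Flt3, Dusp1, Fkbp5, Emcn, Pdgfrb, Cd8a and the further dendritic cell markers were named after their values were seen. Gene positions are RefSeq's (GRCm38.p6) and exon overlaps were read from the GENCODE annotation. Other settings were other pseudocounts, scalings, filters and prior variances, a replicate block, a test on recovered reads, and leaving out each library.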

Additional observations from a re-analysis of the deposited data

How the results depend on the processing

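Of the 19 called members, 15 (14 lower and 1 higher) kept their call under all 14 other settings, and 0 of the 19 changed direction. The exceptions were Nfkb2, Birc3, Traf1 and Ikbkb. With no filter on low values, 848 genes were higher and 1 member was, and 14 members fell. Leaving out 1 library at a time gave 815 to 957 genes higher and 1006 to 1220 lower, 1 to 2 members higher and 14 to 19 lower. Some members without a call changed sign close to 0: Ripk1 was at -0.0158 with rescaling to a common sum, and Ikbke at 0.00972 and Map3k14 at 0.00927 with upper quartile scaling. With 1 library left out, Bcl3 ranged from -0.266 to 0.00651, Ikbke from -0.0739 to 0.0306, Ikbkg from -0.0548 to 0.0218, Map3k14 from -0.0376 to 0.0482 and Ripk1 from -0.0362 to 0.0451. The cause was not tested. A voom test on recovered reads, chosen after seeing the data, called 18 members lower, adding Cflar. The planned count-model fits were left out because the deposited unit is FPKM, although the recovered reads could have served for them.

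With the replicate number as a block, 1208 genes were higher, 16 members fell and 2 rose, and Birc3 lost its call (adjusted p = 0.058). Deviations of same-numbered libraries from their group means correlated at 0.00946, 0.0550 and 0.0195 for numbers 1, 2 and 3, so the numbers were not read as pairs, and not every library correlated best with its own number. Groups of 3 libraries limit the precision of each interval.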
